A study of Homo sapiens with 24 samples.

Results

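The genes described here are 36 genes of the NF-kB pathway and of the cytokines and chemokines it is known to control. They were taken by gene name from the 23595 gene rows of the deposited tables, and each of the 36 names was found once in every table. They comprise 5 subunits of NF-kB, 7 inhibitors and feedback regulators, 4 kinases and adaptors, 3 cytokines, 9 chemokines and 8 surface, enzyme and survival genes. In the study, polyA RNA was sequenced from 2 human leukaemia cell lines labelled AML (acute myeloid leukaemia), U937 and IMS-M2. Each line was grown without folic acid (-FA) or with it (+FA), and each culture condition was treated with OTX or with its solvent control DMSO. This gave 8 groups of 3 libraries, 24 libraries in all: U937 -FA with OTX and with DMSO, U937 +FA with OTX and with DMSO, IMS-M2 -FA with OTX and with DMSO, and IMS-M2 +FA with OTX and with DMSO. The labels name the agent only as OTX; from what is known of the study it is birabresib, which displaces the BET bromodomain proteins from acetylated chromatin.

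Each group is a culture of 1 cell line, so the libraries of a line share 1 genetic background. The labels give neither the dose of OTX, nor the length of treatment, nor how long folic acid was withheld. Nothing in the labels tells whether a group's 3 libraries are 3 cultures or repeats of one, so p-values measure only the spread between these libraries, which may be technical. In U937 -FA the libraries are named by the column numbers of the table, 0 to 2, because these run one lower than the numbers in the labels. All values are as the authors deposited them. No unit is named with them, and they were read as FPKM from their pattern. FPKM are sequenced fragments divided by transcript length and by the size of the library. A level in FPKM is relative to the rest of the same library, so a change of all RNA in a cell would not show. In these bulk samples, fewer cells that use a gene and less of its RNA in each cell cannot be told apart.

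The libraries summed to between 522659 and 644841 FPKM, with 10418 to 10894 genes at 1 FPKM or more, and the lowest correlation between 2 libraries of a group was 0.989, in the DMSO group of U937 -FA, whose column 2 stood apart for some genes. The total of sequenced fragments is not given, so the counting error behind low values is unknown. HEXIM1, whose rise is known as a marker of BET inhibition, had 21.1 to 46.4 FPKM in the OTX libraries, against 6.16 to 11.5 FPKM in the DMSO libraries. Of 9 myeloid and leukocyte markers, 6 had at least 1 FPKM in every library of U937, and likewise 6 in every library of IMS-M2, with the monocyte marker CD14 under 1 FPKM in all of them. The epithelial markers EPCAM and KRT19 were listed at 0 in every library, and CD8A, a T cell marker, was listed at 0 in every library as well. The summed FPKM of the 9 myeloid and leukocyte markers was lower with OTX in each table: 870.3 to 936 with OTX and 1798 to 2190.1 with DMSO in U937 -FA, 643 to 666 and 875 to 1053 in U937 +FA, 133 to 146 and 260.5 to 275 in IMS-M2 -FA, and 122 to 138 and 256 to 272 in IMS-M2 +FA. In IMS-M2 the 3 B cell markers, with MS4A1 at 0, summed to 5.86 to 7.53 FPKM with OTX and 19.2 to 22.7 FPKM with DMSO in -FA, and to 5.34 to 7.66 and 19.7 to 23.4 FPKM in +FA. The highest sums of the other lists in any library were 4.17 FPKM for T cell, 10.4 FPKM for erythroid, 0.334 FPKM for epithelial, 5.97 FPKM for stromal and 7.42 FPKM for endothelial markers. The part of these markers in the results below was not tested.

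NF-kB is a family of dimeric transcription factors that inhibitor proteins of the IkB type hold in the cytoplasm. Signals from receptors for TNF, interleukin 1 and microbial products activate kinases that mark the inhibitors for destruction, and the released dimers enter the nucleus and bind short decameric DNA sites. Among the genes they switch on are their own inhibitors, which close a feedback loop, and in myeloid cells many cytokines and chemokines.

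To show what such sites look like in these genes, the 250 bases before the annotated start were searched in RefSeq promoters (build GRCh38.p14), of which 29 of the 36 genes had one. No promoter was matched for RELB, NFKBIE, IER3, IL8, CCL2, CCL4 and CD69, so these were not searched. The 10-letter NF-kB consensus was found on either strand in 12 of the 29, against 5.05% of all 27303 promoters of that length. The shorter form GGANNTTCC, which overlaps the consensus, was found in 13 of the 29, against 3.88% of all promoters, and TATAAA in 7 of the 29, against 11.1%. A match describes the letters only and does not show binding. The 8 genes below were chosen because they hold the consensus and rose with OTX in IMS-M2 -FA. Picked by this outcome, they do not show a link between match and rise. They have different roles: the inhibitors NFKBIA and NFKBIZ, the feedback enzyme TNFAIP3, the kinase MAP3K8, the ligase BIRC3 and 3 chemokines. The consensus was also found in NFKB1, REL, IL6 and CXCL1, which are not shown. Each stretch reads 5′ to 3′ on the strand of its gene, with the consensus in capitals.
NFKBIA: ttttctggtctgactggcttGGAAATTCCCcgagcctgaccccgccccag
NFKBIZ: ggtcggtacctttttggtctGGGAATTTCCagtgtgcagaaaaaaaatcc
TNFAIP3: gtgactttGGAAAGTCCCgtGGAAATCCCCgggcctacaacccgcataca
MAP3K8: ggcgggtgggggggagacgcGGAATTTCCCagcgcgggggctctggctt
BIRC3: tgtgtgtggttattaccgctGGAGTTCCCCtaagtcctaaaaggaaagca
CXCL2: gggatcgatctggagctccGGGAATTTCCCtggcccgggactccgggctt
CXCL3: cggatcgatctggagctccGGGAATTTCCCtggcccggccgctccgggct
CXCL10: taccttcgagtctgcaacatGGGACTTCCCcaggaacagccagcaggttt

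In GRCh38.p14 these stretches are NFKBIA at chr14:35404801-35404850 (minus strand), NFKBIZ at chr3:101827747-101827796 (plus strand), TNFAIP3 at chr6:137867184-137867233 (plus strand), MAP3K8 at chr10:30433972-30434020 (plus strand), BIRC3 at chr11:102317329-102317378 (plus strand), CXCL2 at chr4:74099243-74099292 (minus strand), CXCL3 at chr4:74038738-74038787 (minus strand) and CXCL10 at chr4:76023590-76023639 (minus strand). TNFAIP3 holds 2 matches side by side. BIRC3 and CXCL10 each hold a further match outside the stretch shown, at 199 to 190 and 177 to 168 bases before the start. CXCL2 and CXCL3 carry the same 11 capital letters, which match on both strands, as do those of the untested gene CXCL1. Of the genes with a consensus, 10 were tested in IMS-M2 -FA, where 8 rose, 0 fell and 2 did not pass the test, namely NFKB1 and REL. Of all 11223 genes tested there, 27.5% rose and 30% fell. Of the 14 tested genes whose promoter was searched and held no consensus, 9 rose and 5 fell in the same comparison. The genes left unsearched could not be classed. Among them IL8 (-2.15 on the log2 scale) and CCL2 (-2.70) fell there, and IER3 (3.36), CD69 (1.45) and RELB (0.80) rose. In U937 -FA the 6 tested genes with a consensus split into 2 that rose, 2 that fell and 2 that did not pass the test, where 28% of all tested genes rose and 31.7% fell. Of the 14 genes tested there whose searched promoter held no consensus, 7 rose, 5 fell and 2 did not pass the test.

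The first question of the design was what OTX did to these genes in each line and medium. A gene was tested where its mean reached 1 FPKM in at least 1 group of the line, on log2(FPKM + 1), with limma across all genes and Benjamini-Hochberg adjustment, and was called at an adjusted p below 0.05. The added 1 FPKM makes the changes of low genes look smaller than they are. In U937, 26 of the 36 genes were tested. In U937 -FA, 11 rose and 10 fell, where 28% of all 11194 tested genes rose and 31.7% fell. In U937 +FA, 11 rose and 7 fell, where 29.1% of all tested genes rose and 27% fell. In IMS-M2, 30 of the 36 genes were tested. In IMS-M2 -FA, 20 rose and 7 fell, where 27.5% of all 11223 tested genes rose and 30% fell. In IMS-M2 +FA, 18 rose and 8 fell, where 29.8% of all tested genes rose and 33.4% fell. The median log2 change of the tested genes of this group was 0.04 in U937 -FA, 0.08 in U937 +FA, 0.42 in IMS-M2 -FA and 0.50 in IMS-M2 +FA, beside medians over all tested genes of -0.02, 0.02, -0.01 and -0.03 in the same order. The plot of changes by role shows every tested gene.

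**Figure D1:**
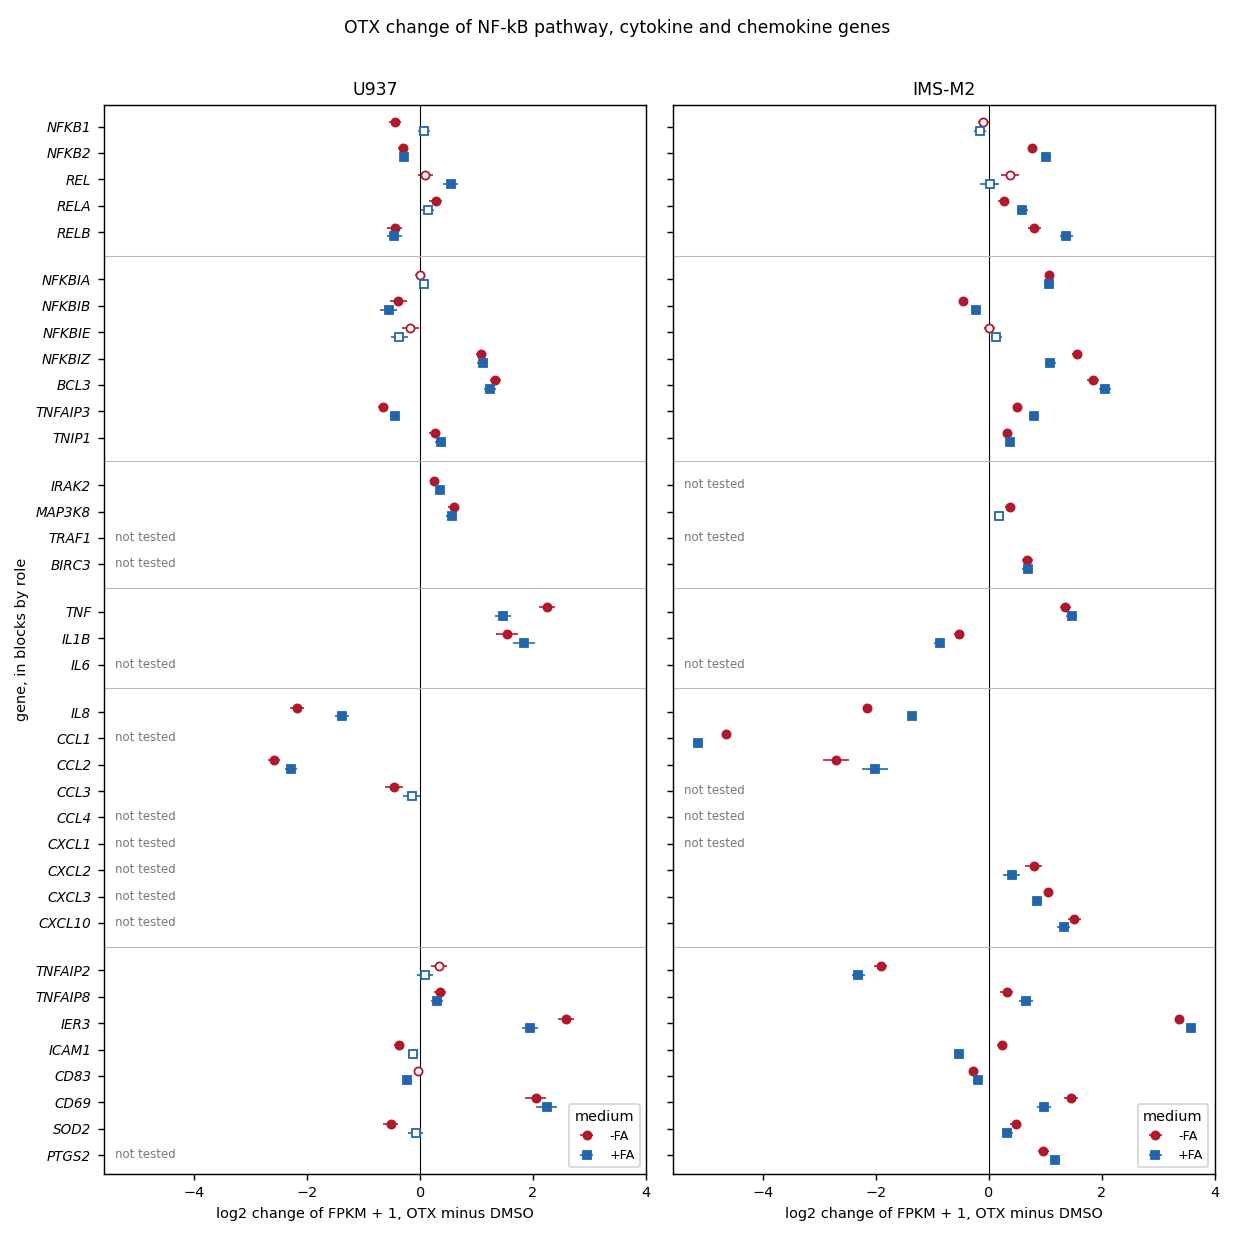
Log2 change of FPKM + 1 with OTX against DMSO (x axis) for each gene (y axis, in blocks by role) in U937 (left) and IMS-M2 (right), as estimate and standard error, n = 3 libraries a group. Circles are -FA and squares +FA, filled where the adjusted p was below 0.05. IER3 lies farthest to the right in IMS-M2 (3.36 in -FA and 3.57 in +FA) and CCL1 farthest to the left.

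Among the subunits, the change went in opposite directions in the 2 lines for the NFKB2 and RELB pair, which form the dimer of the non-canonical pathway. In U937 both fell with OTX, and in IMS-M2 both rose. NFKB2 had 13.6, 12.2 and 11.3 FPKM in the OTX libraries, against 16.6, 15.2 and 14.7 FPKM in the DMSO libraries of U937 -FA, and 11.6, 10.4 and 10.6 FPKM in the OTX libraries, against 12.7, 13.2 and 14.6 FPKM in the DMSO libraries of U937 +FA. In IMS-M2 -FA it had 21.3, 20.7 and 20.8 FPKM in the OTX libraries, against 12.9, 11 and 11.9 FPKM in the DMSO libraries, and in IMS-M2 +FA 19.6, 16.7 and 18.3 FPKM in the OTX libraries, against 8.78, 7.91 and 8.71 FPKM in the DMSO libraries. The OTX and DMSO libraries did not overlap in any of the 4 tables, with OTX below DMSO in both U937 tables and above it in both IMS-M2 tables. On the log2 scale the changes were -0.31 ± 0.09 (adjusted p = 0.0101), -0.29 ± 0.09 (adjusted p = 0.0153), 0.77 ± 0.08 (adjusted p = 4.08e-06) and 1.02 ± 0.08 (adjusted p = 2.49e-07) in the same order, each with its standard error. The U937 +FA call was lost without OTX replicate 2 (-0.26, adjusted p = 0.0561) and without DMSO replicate 3 (-0.23, adjusted p = 0.0676).

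RELB had 3.47, 3.88 and 3.04 FPKM in the OTX libraries, against 5.71, 5.94 and 3.86 FPKM in the DMSO libraries of U937 -FA, and 3.41, 2.77 and 2.59 FPKM in the OTX libraries, against 4.14, 4.42 and 4.59 FPKM in the DMSO libraries of U937 +FA. In IMS-M2 -FA the values were 17.0, 16.7 and 17.2 FPKM in the OTX libraries, against 10.7, 8.54 and 8.81 FPKM in the DMSO libraries, and in IMS-M2 +FA 18.6, 14.5 and 14.8 FPKM in the OTX libraries, against 6.33, 5.64 and 4.67 FPKM in the DMSO libraries. The groups were apart in 3 of the 4 tables; in U937 -FA, DMSO column 2 lay within the OTX values. The changes in log2 were -0.45 ± 0.13 (adjusted p = 0.0121), -0.46 ± 0.13 (adjusted p = 0.0117), 0.80 ± 0.11 (adjusted p = 6.91e-05) and 1.37 ± 0.11 (adjusted p = 5.17e-07). The U937 -FA call was lost without OTX column 2 (-0.38, adjusted p = 0.0518) and without DMSO column 0 (-0.38, adjusted p = 0.0513), and without DMSO column 2 the change was -0.62, adjusted p = 4.56e-04.

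RELA, the main activating subunit of the canonical pathway, rose in U937 -FA and in both IMS-M2 tables. In IMS-M2 it had 33.1 ± 2.75 FPKM with OTX and 27.3 ± 1.26 FPKM with DMSO in -FA and 36.4 ± 3.79 FPKM with OTX and 23.8 ± 2.56 FPKM with DMSO in +FA (SD, n = 3). Its log2 changes there were 0.27 ± 0.10 (adjusted p = 0.0352) and 0.59 ± 0.10 (adjusted p = 2.04e-04). In U937 the change was 0.28 ± 0.11 (adjusted p = 0.0481) in -FA, and 0.13 ± 0.11 (adjusted p = 0.319) in +FA, which did not pass the test. The U937 -FA call was lost without any one of OTX columns 0 and 1, and DMSO columns 0 and 2 (0.15 to 0.32, adjusted p = 0.0548 to 0.18), and the IMS-M2 -FA call without any one of OTX replicates 2 and 3, and DMSO replicates 1, 2 and 3 (0.20 to 0.28, adjusted p = 0.0567 to 0.137). NFKB1, the precursor of the canonical DNA-binding subunit, fell in U937 -FA, where it had 17.6 ± 1.05 FPKM with OTX and 24.3 ± 1.93 FPKM with DMSO (log2 change -0.44 ± 0.11, adjusted p = 0.00435). In the other 3 tables its change lay between -0.15 and 0.07 and did not pass the test. REL, a subunit best known from lymphocytes, rose in U937 +FA, with 5.65 ± 0.588 FPKM with OTX and 3.57 ± 0.509 FPKM with DMSO (log2 change 0.54 ± 0.13, adjusted p = 0.00396). Its log2 changes in the other tables did not pass the test, at 0.09 ± 0.13 in U937 -FA, 0.38 ± 0.16 in IMS-M2 -FA and 0.01 ± 0.16 in IMS-M2 +FA, with adjusted p of 0.560, 0.0660 and 0.948.

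Among the 7 inhibitors and feedback regulators, BCL3, NFKBIZ and TNIP1 rose in all 4 tables and NFKBIB fell in all 4. NFKBIA, the IkB alpha protein that the canonical pathway destroys and then rebuilds, rose about as much in both IMS-M2 tables. It had 52.6, 49.4 and 50.9 FPKM in the OTX libraries, against 24.2, 23.0 and 24.2 FPKM in the DMSO libraries of IMS-M2 -FA, and 38.9, 37.6 and 39.4 FPKM in the OTX libraries, against 16.4, 18.1 and 19.2 FPKM in the DMSO libraries of IMS-M2 +FA. No OTX library came near a DMSO library there, and the log2 changes were 1.07 ± 0.07 (adjusted p = 7.44e-08) and 1.07 ± 0.07 (adjusted p = 5.91e-08). In U937 its groups overlapped, with 20.5 ± 1.69 FPKM with OTX and 20.6 ± 1.32 FPKM with DMSO in -FA and 15.7 ± 1.2 FPKM with OTX and 14.9 ± 0.730 FPKM with DMSO in +FA, and neither log2 change passed the test (-0.01 ± 0.09, adjusted p = 0.926, and 0.07 ± 0.09, adjusted p = 0.502).

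BCL3 and NFKBIZ encode atypical IkB proteins that act in the nucleus as cofactors, and both rose in all 4 tables. BCL3 had 13.1, 12.7 and 10.3 FPKM in the OTX libraries, against 4.39, 4.28 and 3.80 FPKM in the DMSO libraries of U937 -FA, and 10.4, 8.78 and 8.54 FPKM in the OTX libraries, against 3.32, 3.12 and 3.55 FPKM in the DMSO libraries of U937 +FA. In IMS-M2 the -FA values were 52.2, 46.4 and 55.0 FPKM in the OTX libraries, against 14.1, 12.8 and 13.6 FPKM in the DMSO libraries, and in IMS-M2 +FA 83.8, 64.3 and 80.4 FPKM in the OTX libraries, against 17.1, 17.0 and 18.3 FPKM in the DMSO libraries. All OTX libraries stood above all DMSO libraries in each table. The ratio of the group means was 2.89 in U937 -FA, 2.77 in U937 +FA, 3.79 in IMS-M2 -FA and 4.36 in IMS-M2 +FA. The log2 changes were 1.33 ± 0.10 (adjusted p = 9.50e-07), 1.24 ± 0.10 (adjusted p = 1.89e-06), 1.84 ± 0.10 (adjusted p = 1.21e-08) and 2.05 ± 0.10 (adjusted p = 3.51e-09).

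NFKBIZ was low in U937, with 2.39 ± 0.284 FPKM with OTX and 0.607 ± 0.0360 FPKM with DMSO in -FA and 2.86 ± 0.396 FPKM with OTX and 0.792 ± 0.112 FPKM with DMSO in +FA (SD, n = 3). In IMS-M2 -FA it had 12.7, 10.3 and 10.9 FPKM in the OTX libraries, against 3.28, 3.28 and 2.90 FPKM in the DMSO libraries, and in IMS-M2 +FA 11.2, 10.4 and 9.80 FPKM in the OTX libraries, against 4.23, 4.02 and 4.91 FPKM in the DMSO libraries. The groups were apart in all 4 tables, and the log2 changes were 1.07 ± 0.09 (adjusted p = 2.45e-06), 1.10 ± 0.09 (adjusted p = 2.22e-06), 1.57 ± 0.09 (adjusted p = 2.41e-08) and 1.09 ± 0.09 (adjusted p = 5.50e-07). In the tables NFKBIZ shares its locus entry with NXPE3, and how reads between them were assigned is not given in the sources used here.

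TNFAIP3, the ubiquitin-editing enzyme A20 that ends NF-kB signalling, took the same course as NFKB2 and RELB. It had 1.58 ± 0.167 FPKM with OTX and 3.07 ± 0.323 FPKM with DMSO in U937 -FA and 1.53 ± 0.157 FPKM with OTX and 2.47 ± 0.0679 FPKM with DMSO in U937 +FA, and fell in both (log2 changes -0.66 ± 0.08, adjusted p = 3.87e-05, and -0.45 ± 0.08, adjusted p = 6.22e-04). In IMS-M2 it rose in both tables, with 5.65 ± 0.395 FPKM with OTX and 3.71 ± 0.273 FPKM with DMSO in -FA and 5.50 ± 0.317 FPKM with OTX and 2.72 ± 0.197 FPKM with DMSO in +FA (log2 changes 0.50 ± 0.08, adjusted p = 1.29e-04, and 0.81 ± 0.08, adjusted p = 1.71e-06). No library of one treatment overlapped the other in any of these tables. TNFAIP3 shares its locus entry with LOC100130476. TNIP1, which binds A20 and assists it, rose in all 4 tables by between 0.26 and 0.37 on the log2 scale, and its U937 -FA call of 0.26 ± 0.10 (adjusted p = 0.0385) was lost without any one of OTX columns 0 and 1, and DMSO columns 1 and 2 (0.18 to 0.29, adjusted p = 0.0522 to 0.147).

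NFKBIB, the IkB beta protein, was the only one of the 3 cytoplasmic inhibitors that fell in all 4 tables, by between 0.23 and 0.55 on the log2 scale. Its means were 26.8 ± 2.79 FPKM with OTX and 35.9 ± 7.85 FPKM with DMSO in U937 -FA, 27.3 ± 3.68 FPKM with OTX and 40.4 ± 1.48 FPKM with DMSO in U937 +FA, 14.5 ± 0.441 FPKM with OTX and 20.4 ± 1.97 FPKM with DMSO in IMS-M2 -FA and 14.5 ± 0.182 FPKM with OTX and 17.2 ± 1.09 FPKM with DMSO in IMS-M2 +FA. In U937 -FA its DMSO libraries had 40.5, 40.5 and 26.9 FPKM, of which the last fell within the OTX values of 29.3, 27.3 and 23.8 FPKM. That call, -0.39 ± 0.15 (adjusted p = 0.0426), was lost without any one of OTX columns 1 and 2, and DMSO columns 0 and 1 (-0.41 to -0.29, adjusted p = 0.0803 to 0.155), while without DMSO column 2 the change was -0.58, adjusted p = 0.00110. The call in IMS-M2 +FA was lost without OTX replicate 3 (-0.23, adjusted p = 0.0512) and without DMSO replicate 1 (-0.18, adjusted p = 0.0559). NFKBIB shares its locus entry with SIRT2. NFKBIE, the IkB epsilon protein, passed the test in none of the 4 tables, with log2 changes of -0.18 ± 0.15 (adjusted p = 0.324), -0.37 ± 0.15 (adjusted p = 0.0546), 0.01 ± 0.10 (adjusted p = 0.9516) and 0.13 ± 0.10 (adjusted p = 0.251); at an unadjusted p below 0.05, 1 of these 4 would pass.

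**Figure D2:**
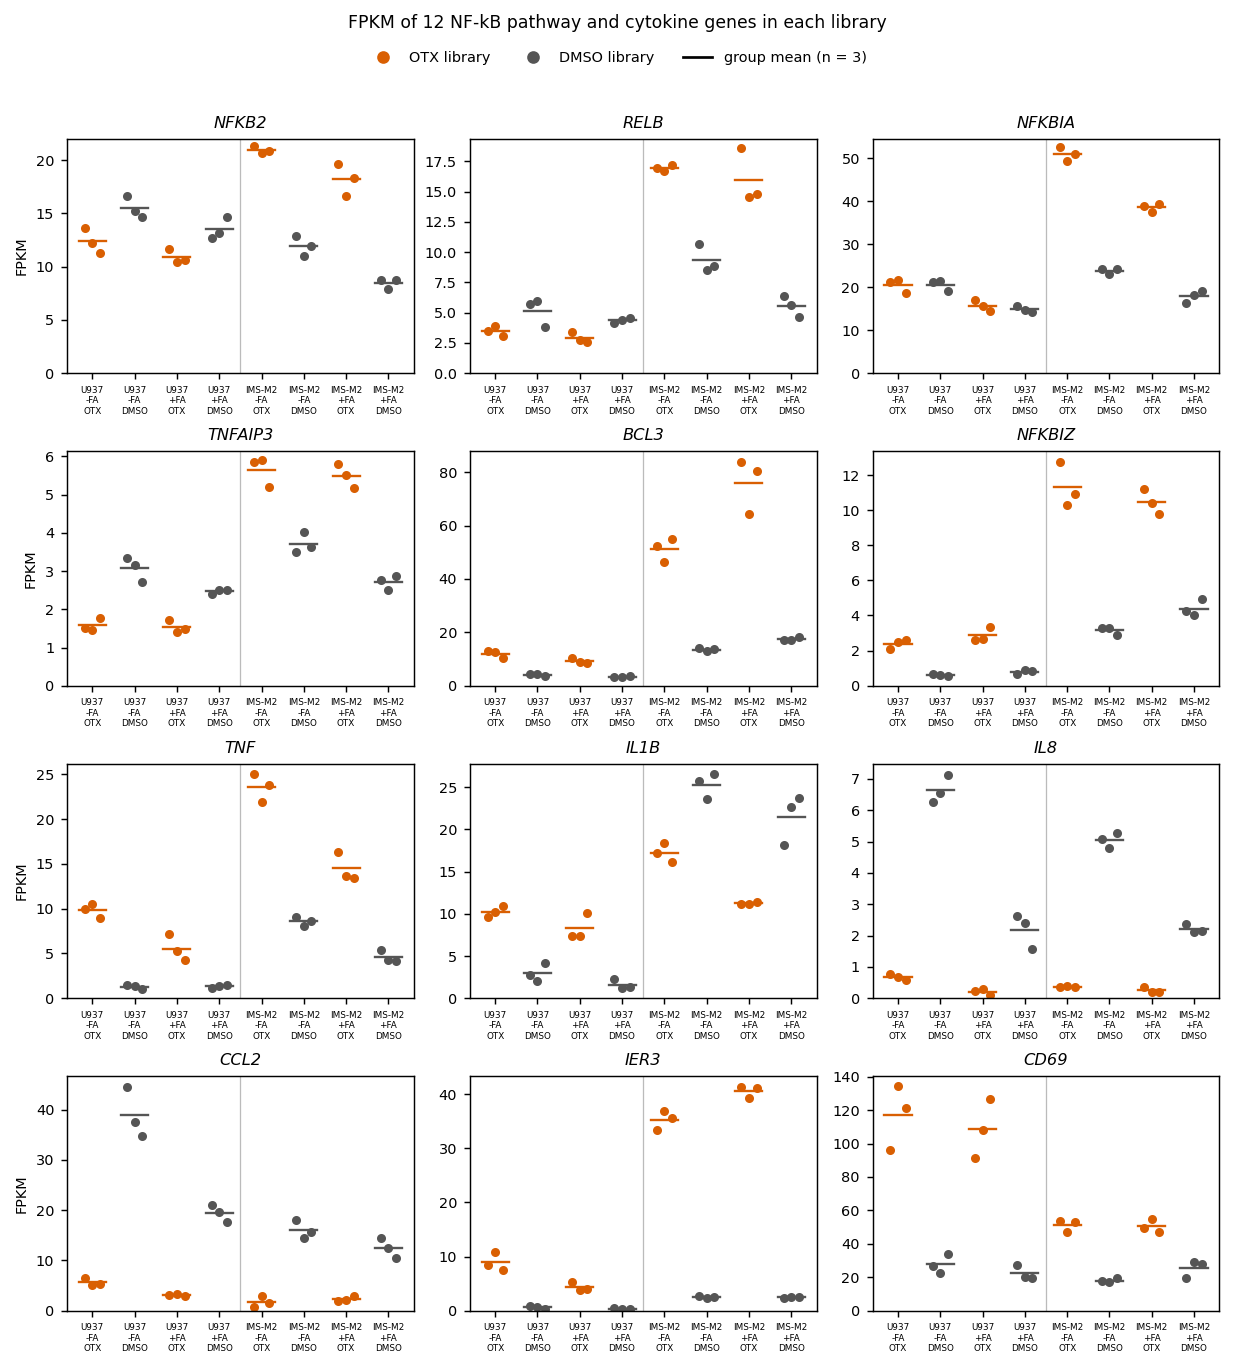
FPKM (y axes, each from 0) of 12 of the genes in every library, with OTX libraries in orange left of DMSO libraries in grey for each table, and lines at the group means (n = 3). U937 stands left of the grey rule and IMS-M2 right of it. NFKB2, RELB and TNFAIP3 are lower with OTX in U937 and higher with OTX in IMS-M2, IL1B runs the other way, and IL8 and CCL2 are low in all OTX groups.

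Of the kinases and adaptors, MAP3K8, a kinase that links NF-kB1 to MAP kinase signalling, rose in 3 of the 4 tables. It had 4.05 ± 0.427 FPKM with OTX and 2.35 ± 0.298 FPKM with DMSO in U937 -FA and 3.36 ± 0.225 FPKM with OTX and 1.97 ± 0.253 FPKM with DMSO in U937 +FA, with log2 changes of 0.59 ± 0.09 (adjusted p = 2.43e-04) and 0.56 ± 0.09 (adjusted p = 4.16e-04). In IMS-M2 the changes were 0.37 ± 0.08 (adjusted p = 0.00167) in -FA and 0.18 ± 0.08 (adjusted p = 0.0699) in +FA, the second of which did not pass the test. IRAK2, a kinase of interleukin 1 and toll-like receptor signalling, was measured in U937 and close to 0 in IMS-M2, where no library exceeded 0.0264 FPKM. In U937 it rose in both tables, with 8.58 ± 0.119 FPKM with OTX and 7.07 ± 0.0566 FPKM with DMSO in -FA and 6.33 ± 0.335 FPKM with OTX and 4.77 ± 0.302 FPKM with DMSO in +FA (log2 changes 0.25 ± 0.06, adjusted p = 0.00585, and 0.35 ± 0.06, adjusted p = 7.67e-04). BIRC3, a ubiquitin ligase of the TNF receptor complex, was tested in IMS-M2 alone and rose in both tables there. It had 3.38 ± 0.440 FPKM with OTX and 1.72 ± 0.0880 FPKM with DMSO in -FA and 2.44 ± 0.161 FPKM with OTX and 1.142 ± 0.231 FPKM with DMSO in +FA (log2 changes 0.68 ± 0.10, adjusted p = 5.96e-05, and 0.69 ± 0.10, adjusted p = 4.67e-05), while its U937 libraries did not exceed 0.296 FPKM. TRAF1, an adaptor of TNF receptors, did not exceed 0.849 FPKM in any library and was not tested.

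TNF, a cytokine that activates the pathway and is one of its targets, rose with OTX in all 4 tables. It had 9.99, 10.51 and 8.99 FPKM in the OTX libraries, against 1.47, 1.34 and 1.08 FPKM in the DMSO libraries of U937 -FA, and 7.14, 5.22 and 4.25 FPKM in the OTX libraries, against 1.13, 1.38 and 1.48 FPKM in the DMSO libraries of U937 +FA. Its IMS-M2 -FA values were 25.0, 21.9 and 23.8 FPKM in the OTX libraries, against 9.08, 8.11 and 8.63 FPKM in the DMSO libraries, and in IMS-M2 +FA 16.3, 13.7 and 13.5 FPKM in the OTX libraries, against 5.38, 4.32 and 4.18 FPKM in the DMSO libraries. Every OTX library was above every DMSO library of its table, and the ratio of means was 7.59 in U937 -FA, 4.16 in U937 +FA, 2.74 in IMS-M2 -FA and 3.13 in IMS-M2 +FA. On the log2 scale the changes were 2.24 ± 0.14 (adjusted p = 2.50e-07), 1.47 ± 0.14 (adjusted p = 6.09e-06), 1.35 ± 0.10 (adjusted p = 1.70e-07) and 1.46 ± 0.10 (adjusted p = 6.92e-08).

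IL1B, the inflammatory cytokine interleukin 1 beta, rose in U937 and fell in IMS-M2. It had 9.60, 10.2 and 10.9 FPKM in the OTX libraries, against 2.73, 2.03 and 4.13 FPKM in the DMSO libraries of U937 -FA, and 7.34, 7.42 and 10.1 FPKM in the OTX libraries, against 2.31, 1.19 and 1.37 FPKM in the DMSO libraries of U937 +FA. In IMS-M2 the -FA values were 17.1, 18.3 and 16.1 FPKM in the OTX libraries, against 25.7, 23.6 and 26.5 FPKM in the DMSO libraries, and in IMS-M2 +FA 11.2, 11.1 and 11.4 FPKM in the OTX libraries, against 18.1, 22.6 and 23.8 FPKM in the DMSO libraries. The groups were apart in all 4 tables. In -FA medium the OTX means were 10.2 ± 0.671 FPKM in U937 and 17.2 ± 1.10 FPKM in IMS-M2, and the DMSO means 2.96 ± 1.07 FPKM in U937 and 25.3 ± 1.5 FPKM in IMS-M2; these levels are from separate tables and were not tested against each other. The changes in log2 were 1.54 ± 0.20 (adjusted p = 4.94e-05), 1.83 ± 0.20 (adjusted p = 1.46e-05), -0.53 ± 0.09 (adjusted p = 4.10e-04) and -0.87 ± 0.09 (adjusted p = 5.79e-06). IL6, the other inflammatory cytokine of the group, did not exceed 0.0353 FPKM in any library and was not tested.

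The chemokines IL8 and CCL2 fell in all 4 tables. IL8, which draws neutrophils, had 0.789, 0.676 and 0.596 FPKM in the OTX libraries, against 6.27, 6.54 and 7.13 FPKM in the DMSO libraries of U937 -FA, and 0.218, 0.309 and 0.111 FPKM in the OTX libraries, against 2.61, 2.40 and 1.56 FPKM in the DMSO libraries of U937 +FA. In IMS-M2 -FA it had 0.354, 0.377 and 0.355 FPKM in the OTX libraries, against 5.08, 4.79 and 5.27 FPKM in the DMSO libraries, and in IMS-M2 +FA 0.356, 0.205 and 0.198 FPKM in the OTX libraries, against 2.38, 2.11 and 2.13 FPKM in the DMSO libraries. The highest OTX library had 0.789 FPKM and the lowest DMSO library 1.56 FPKM. The ratio of means was 0.103 in U937 -FA, 0.0970 in U937 +FA, 0.0717 in IMS-M2 -FA and 0.114 in IMS-M2 +FA. The log2 changes were -2.18 ± 0.12 (adjusted p = 1.13e-07), -1.38 ± 0.12 (adjusted p = 3.04e-06), -2.15 ± 0.07 (adjusted p = 2.10e-10) and -1.36 ± 0.07 (adjusted p = 1.00e-08).

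CCL2, which draws monocytes, had 6.47, 5.13 and 5.30 FPKM in the OTX libraries, against 44.4, 37.5 and 34.6 FPKM in the DMSO libraries of U937 -FA, and 3.20, 3.31 and 3.02 FPKM in the OTX libraries, against 21.0, 19.6 and 17.6 FPKM in the DMSO libraries of U937 +FA. Its IMS-M2 -FA values were 0.775, 2.96 and 1.53 FPKM in the OTX libraries, against 18.0, 14.5 and 15.6 FPKM in the DMSO libraries, and in IMS-M2 +FA 1.95, 2.12 and 2.95 FPKM in the OTX libraries, against 14.5, 12.4 and 10.6 FPKM in the DMSO libraries. The OTX libraries were lower throughout, without overlap. The ratio of means was 0.145 in U937 -FA, 0.164 in U937 +FA, 0.109 in IMS-M2 -FA and 0.188 in IMS-M2 +FA. On the log2 scale the changes were -2.59 ± 0.11 (adjusted p = 2.16e-08), -2.28 ± 0.11 (adjusted p = 5.38e-08), -2.70 ± 0.23 (adjusted p = 6.49e-07) and -2.01 ± 0.23 (adjusted p = 7.75e-06).

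CCL1, a chemokine for T cells and monocytes, is listed at 0 in all 6 OTX libraries of IMS-M2. Its DMSO libraries had 23.5, 26.0 and 22.9 FPKM in -FA and 32.6, 34.4 and 36.9 FPKM in +FA. A listed 0 allows no fold, and the log2 changes of -4.65 ± 0.07 (adjusted p = 3.42e-13) and -5.15 ± 0.07 (adjusted p = 9.58e-14) are set by the DMSO level and the added 1 FPKM. In U937, CCL1 did not exceed 0.0795 FPKM in any library.

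CXCL3, CXCL2 and CXCL10 moved the other way in IMS-M2 and were under 1 FPKM in every U937 library. CXCL3 and CXCL2, 2 close relatives that draw neutrophils through the same receptor as IL8, rose in both IMS-M2 tables. CXCL3 had 8.77, 8.65 and 8.09 FPKM in the OTX libraries, against 3.84, 3.60 and 3.34 FPKM in the DMSO libraries of IMS-M2 -FA, and 7.25 ± 0.564 FPKM with OTX and 3.55 ± 0.255 FPKM with DMSO in IMS-M2 +FA (log2 changes 1.05 ± 0.08, adjusted p = 1.81e-07, and 0.86 ± 0.08, adjusted p = 9.67e-07). CXCL2 had 5.13 ± 0.835 FPKM with OTX and 2.51 ± 0.151 FPKM with DMSO in -FA and 4.59 ± 1.08 FPKM with OTX and 3.20 ± 0.579 FPKM with DMSO in +FA (log2 changes 0.79 ± 0.15, adjusted p = 5.26e-04, and 0.40 ± 0.15, adjusted p = 0.0297). In +FA the CXCL2 groups overlapped, and the call was lost without any one of OTX replicates 1 and 2, and DMSO replicates 1 and 3 (0.30 to 0.37, adjusted p = 0.0765 to 0.118). The related sequences of CXCL1, CXCL2 and CXCL3 could share reads, and how the authors' counting split such reads is not given in the sources used here. CXCL10, a chemokine known mainly as an interferon target, had 4.85 ± 0.825 FPKM with OTX and 1.03 ± 0.0459 FPKM with DMSO in -FA and 3.21 ± 0.317 FPKM with OTX and 0.682 ± 0.194 FPKM with DMSO in +FA (log2 changes 1.51 ± 0.11, adjusted p = 1.81e-07, and 1.33 ± 0.11, adjusted p = 5.07e-07), with no overlap of libraries. Its locus entry in the tables is shared with ART3 and CXCL11.

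CCL3, a macrophage chemokine, passed the filter in U937 through its -FA libraries. It had 1.65, 1.49 and 0.917 FPKM with OTX and 2.37, 1.54 and 2.87 FPKM with DMSO, which overlapped (log2 change -0.46 ± 0.16, adjusted p = 0.0296). The call was lost without any one of OTX column 2, and DMSO columns 0 and 2 (-0.43 to -0.32, adjusted p = 0.0818 to 0.126). Added after seeing the data, a replicate block by the column numbers of U937 -FA also ended the call (-0.46, adjusted p = 0.0661). In U937 +FA the change was -0.14 ± 0.16 with an adjusted p of 0.485. CCL4 did not exceed 0.178 FPKM and CXCL1 did not exceed 0.521 FPKM in any library, and neither was tested. Over the 9 chemokines, 3 were tested in U937, where 0 rose and 3 fell in -FA and 0 rose and 2 fell in +FA. Of all genes tested in U937, 28% rose and 31.7% fell in -FA, and 29.1% rose and 27% fell in +FA. In IMS-M2, 6 chemokines were tested, of which 3 rose and 3 fell in each medium. Of all genes tested in IMS-M2, 27.5% rose and 30% fell in -FA, and 29.8% rose and 33.4% fell in +FA.

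IER3, an early response gene that acts on cell survival, showed the highest log2 change of the 36 genes in every table but U937 +FA, where CD69 was higher. It had 8.47, 10.9 and 7.52 FPKM in the OTX libraries, against 0.886, 0.723 and 0.384 FPKM in the DMSO libraries of U937 -FA, and 5.26, 3.91 and 4.07 FPKM in the OTX libraries, against 0.424, 0.411 and 0.370 FPKM in the DMSO libraries of U937 +FA. In IMS-M2 the -FA values were 33.4, 36.8 and 35.6 FPKM in the OTX libraries, against 2.77, 2.32 and 2.49 FPKM in the DMSO libraries, and in IMS-M2 +FA 41.2, 39.3 and 41.2 FPKM in the OTX libraries, against 2.34, 2.55 and 2.60 FPKM in the DMSO libraries. Every OTX library was more than 8 times as high as any DMSO library of its table. The ratio of means was 13.5 in U937 -FA, 11 in U937 +FA, 13.9 in IMS-M2 -FA and 16.2 in IMS-M2 +FA. The changes in log2 were 2.58 ± 0.14 (adjusted p = 1.19e-07), 1.94 ± 0.14 (adjusted p = 9.70e-07), 3.36 ± 0.07 (adjusted p = 3.10e-12) and 3.57 ± 0.07 (adjusted p = 1.55e-12).

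CD69, an early activation marker of leukocytes, rose in all 4 tables. It had 96.4, 134 and 121 FPKM in the OTX libraries, against 26.6, 22.6 and 34.0 FPKM in the DMSO libraries of U937 -FA, and 91.3, 108 and 127 FPKM in the OTX libraries, against 27.4, 20.04 and 19.5 FPKM in the DMSO libraries of U937 +FA. In IMS-M2 -FA it had 54.0, 46.9 and 52.8 FPKM in the OTX libraries, against 17.6, 17.2 and 19.4 FPKM in the DMSO libraries, and in IMS-M2 +FA 49.8, 54.7 and 47.2 FPKM in the OTX libraries, against 19.6, 29.1 and 27.9 FPKM in the DMSO libraries. The treatment groups were apart in each table, and with OTX the U937 libraries reached the highest levels of the 36 genes. The log2 changes were 2.05 ± 0.18 (adjusted p = 3.46e-06), 2.24 ± 0.18 (adjusted p = 2.04e-06), 1.45 ± 0.13 (adjusted p = 8.74e-07) and 0.97 ± 0.13 (adjusted p = 2.61e-05).

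TNFAIP2, a TNF-induced gene tied to the formation of membrane protrusions, fell in IMS-M2 and did not pass the test in U937. Its IMS-M2 -FA values were 3.25, 3.26 and 3.40 FPKM in the OTX libraries, against 15.6, 15.5 and 14.6 FPKM in the DMSO libraries, and in IMS-M2 +FA 2.59, 1.99 and 2.16 FPKM in the OTX libraries, against 18.4, 12.4 and 15.0 FPKM in the DMSO libraries. No libraries overlapped there, and the log2 changes were -1.91 ± 0.11 (adjusted p = 2.83e-08) and -2.31 ± 0.11 (adjusted p = 4.03e-09). In U937 it had 23.6 ± 2.37 FPKM with OTX and 18.6 ± 3.14 FPKM with DMSO in -FA and 15.2 ± 2.56 FPKM with OTX and 14.1 ± 1.13 FPKM with DMSO in +FA, with log2 changes of 0.34 ± 0.14 (adjusted p = 0.0551) and 0.09 ± 0.14 (adjusted p = 0.604). PTGS2, the inducible enzyme of prostaglandin synthesis, rose in IMS-M2, where it had 7.24 ± 0.450 FPKM with OTX and 3.23 ± 0.422 FPKM with DMSO in -FA and 7.68, 8.0 and 6.52 FPKM in the OTX libraries, against 2.53, 2.82 and 2.82 FPKM in the DMSO libraries of +FA (log2 changes 0.97 ± 0.09, adjusted p = 2.07e-06, and 1.17 ± 0.09, adjusted p = 2.95e-07). In U937 it did not exceed 0.404 FPKM in any library and was not tested.

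SOD2, the mitochondrial superoxide dismutase and the most abundant of the 36 genes in the +FA DMSO groups of both lines, fell in U937 -FA and rose in both IMS-M2 tables. It had 54.5 ± 1.25 FPKM with OTX and 79.6 ± 14.1 FPKM with DMSO in U937 -FA and 66.4 ± 7.07 FPKM with OTX and 70.4 ± 9.59 FPKM with DMSO in U937 +FA, with log2 changes of -0.52 ± 0.13 (adjusted p = 0.00523) and -0.08 ± 0.13 (adjusted p = 0.626). In IMS-M2 it had 54.5 ± 0.744 FPKM with OTX and 39.1 ± 3.37 FPKM with DMSO in -FA and 61.4 ± 0.933 FPKM with OTX and 49.1 ± 7.37 FPKM with DMSO in +FA, with log2 changes of 0.47 ± 0.10 (adjusted p = 0.00155) and 0.33 ± 0.10 (adjusted p = 0.0135). TNFAIP8, a gene that counters cell death, rose in all 4 tables by between 0.30 and 0.66 on the log2 scale. Its U937 -FA call was lost without OTX column 1 (0.27, adjusted p = 0.0612) and without DMSO column 0 (0.30, adjusted p = 0.0532). The U937 +FA call was lost without any one of OTX replicates 2 and 3, and DMSO replicates 1 and 3 (0.25 to 0.32, adjusted p = 0.0505 to 0.0978), and the IMS-M2 -FA call without any one of OTX replicates 1 and 2, and DMSO replicates 1, 2 and 3 (0.24 to 0.35, adjusted p = 0.0539 to 0.131). In IMS-M2 +FA, where it had 51.8 ± 7.10 FPKM with OTX and 32.4 ± 4.22 FPKM with DMSO, no single library ended the call.

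CD83, a marker of mature dendritic cells, fell by between 0.20 and 0.27 on the log2 scale in 3 tables and had a change of -0.04 ± 0.08 (adjusted p = 0.663) in U937 -FA. Its U937 +FA call was lost without OTX replicate 2 (-0.22, adjusted p = 0.0653) and without DMSO replicate 2 (-0.22, adjusted p = 0.0656), and its IMS-M2 +FA call without any one of OTX replicates 2 and 3, and DMSO replicates 1 and 2 (-0.19 to -0.16, adjusted p = 0.0677 to 0.122). ICAM1, an adhesion molecule on which leukocytes dock, fell in U937 -FA and IMS-M2 +FA and rose in IMS-M2 -FA. It had 18.6 ± 0.0517 FPKM with OTX and 24.6 ± 2.86 FPKM with DMSO in U937 -FA, 13.3 ± 0.666 FPKM with OTX and 14.7 ± 1.138 FPKM with DMSO in U937 +FA, 3.91 ± 0.0691 FPKM with OTX and 3.18 ± 0.409 FPKM with DMSO in IMS-M2 -FA and 2.1 ± 0.0993 FPKM with OTX and 3.49 ± 0.392 FPKM with DMSO in IMS-M2 +FA. On the log2 scale the changes were -0.38 ± 0.09 (adjusted p = 0.00334), -0.13 ± 0.09 (adjusted p = 0.230), 0.24 ± 0.09 (adjusted p = 0.0309) and -0.53 ± 0.09 (adjusted p = 1.50e-04). The rise in IMS-M2 -FA was lost without any one of OTX replicates 1, 2 and 3, and DMSO replicates 1 and 2 (0.17 to 0.25, adjusted p = 0.0536 to 0.131).

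The next question was whether the 2 lines answered OTX alike. Over the 24 genes of the group tested in both lines, 7 rose in all 4 tables (NFKBIZ, BCL3, TNIP1, TNF, TNFAIP8, IER3 and CD69), where 11.4% of 10220 genes did so. Another 3 fell in all 4 tables (NFKBIB, IL8 and CCL2), where 11.8% did. NFKB2, RELB and TNFAIP3 fell in both U937 tables and rose in both IMS-M2 tables, which 34 of the 10220 genes, or 0.333%, did. IL1B rose in both U937 tables and fell in both IMS-M2 tables, which 1.21% of the genes did. These shares describe the patterns and were not tested.

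The difference itself, the OTX change in U937 minus the OTX change in IMS-M2, was tested in 1 fit over all 24 libraries, which covered 32 of the 36 genes. In -FA, 6 differences were above 0 and 15 below it at an adjusted p below 0.05, where 21.5% of all 12197 tested genes were above and 21.5% below. In +FA, 7 were above and 13 below, where 27.7% of all tested genes were above and 22.9% below. The plot of U937 against IMS-M2 changes shows the genes tested in both lines.

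**Figure D3:**
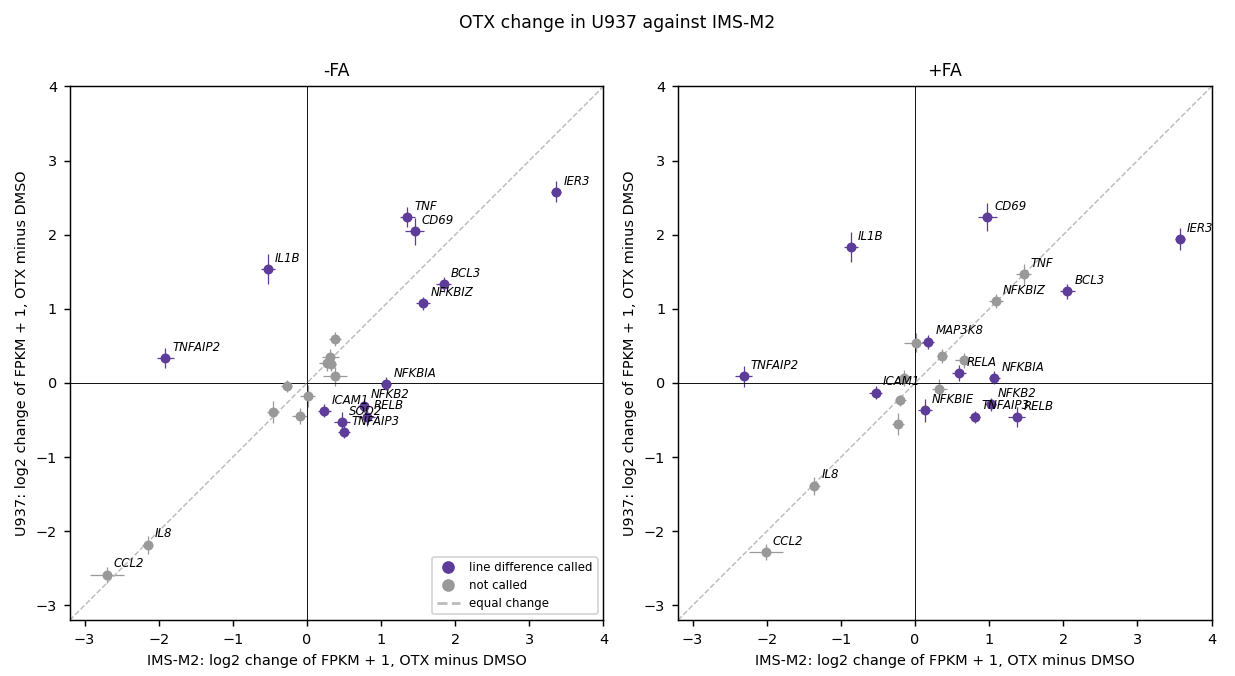
OTX log2 change of FPKM + 1 in U937 (y axis) against IMS-M2 (x axis) for the 24 genes tested in both lines, in -FA (left) and +FA (right), with standard errors (n = 3 libraries a group). Purple points had a line difference at an adjusted p below 0.05 and the dashed line marks equal change. IL1B and TNFAIP2 lie above the line, and NFKB2, RELB, NFKBIA and TNFAIP3 below it. IL8 and CCL2 lie near it.

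Among the genes below 0 were RELB, NFKB2, TNFAIP3 and NFKBIA. For RELB the difference was -1.26 ± 0.18 (adjusted p = 1.50e-05) in -FA and -1.84 ± 0.18 (adjusted p = 8.26e-08) in +FA. For NFKB2 it was -1.07 ± 0.11 (adjusted p = 2.06e-07) in -FA and -1.30 ± 0.11 (adjusted p = 1.03e-08) in +FA, and for TNFAIP3 -1.16 ± 0.10 (adjusted p = 1.93e-08) and -1.26 ± 0.10 (adjusted p = 4.62e-09). The 3 genes moved in opposite directions in the lines. NFKBIA, with -1.08 ± 0.10 (adjusted p = 5.55e-08) in -FA and -1.001 ± 0.10 (adjusted p = 1.38e-07) in +FA, rose in IMS-M2 and did not pass the test in U937. BCL3 and IER3 rose in both lines and rose less on this scale in U937, with differences of -0.51 ± 0.14 (adjusted p = 0.00708) and -0.82 ± 0.14 (adjusted p = 1.05e-04) for BCL3 in -FA and +FA, and -0.78 ± 0.16 (adjusted p = 6.46e-04) and -1.63 ± 0.16 (adjusted p = 7.84e-08) for IER3. For IER3 the ratios of means were close in -FA, 13.5 in U937 and 13.9 in IMS-M2, and with an added 0.1 FPKM in place of 1 the -FA difference was -0.14, adjusted p = 0.694. NFKBIZ had a difference of -0.49 ± 0.13 (adjusted p = 0.00396) in -FA, which with 0.1 FPKM added was 0.0034 at an adjusted p of 0.991. SOD2 differed by -0.996 ± 0.17 (adjusted p = 9.39e-05) in -FA, and RELA by -0.46 ± 0.15 (adjusted p = 0.0150) and NFKBIE by -0.50 ± 0.18 (adjusted p = 0.0299) in +FA. The NFKBIE call was lost without any one of U937 +FA OTX replicates 2 and 3, U937 +FA DMSO replicate 3, IMS-M2 +FA OTX replicates 1 and 3, and IMS-M2 +FA DMSO replicate 3 (-0.49 to -0.41, adjusted p = 0.0543 to 0.0885).

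Above 0 stood IL1B, TNFAIP2, CD69, TNF and MAP3K8. IL1B and TNFAIP2 had the widest gaps among the genes tested in both lines, for IL1B 2.07 ± 0.23 (adjusted p = 4.65e-07) in -FA and 2.70 ± 0.23 (adjusted p = 8.45e-09) in +FA. For TNFAIP2 the differences were 2.25 ± 0.19 (adjusted p = 6.92e-09) in -FA and 2.40 ± 0.19 (adjusted p = 2.31e-09) in +FA. CD69 rose more in U937, by 0.60 ± 0.24 (adjusted p = 0.0481) in -FA and 1.26 ± 0.24 (adjusted p = 1.95e-04) in +FA, though the -FA call was lost without any one of U937 -FA OTX columns 1 and 2, U937 -FA DMSO columns 0 and 1, IMS-M2 -FA OTX replicates 1, 2 and 3, and IMS-M2 -FA DMSO replicates 1, 2 and 3 (0.46 to 0.63, adjusted p = 0.0593 to 0.127) and with a replicate block by column number (0.60, adjusted p = 0.0740). TNF differed in -FA by 0.89 ± 0.18 (adjusted p = 4.39e-04) and in +FA by 0.00 ± 0.18 with an adjusted p of 0.99. MAP3K8 differed by 0.38 ± 0.12 (adjusted p = 0.0123) in +FA. ICAM1 was below 0 in -FA (-0.61 ± 0.12, adjusted p = 3.25e-04) and above 0 in +FA (0.40 ± 0.12, adjusted p = 0.00799).

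For 8 further genes the test of the difference compared a line with a group mean of at least 1 FPKM with one under it. BIRC3, CXCL2, CXCL3, CXCL10 and PTGS2 were under 1 FPKM in every U937 library and had differences below 0, from -0.68 to -1.18 in -FA and from -0.49 to -1.19 in +FA. For CXCL2 the U937 means were 0.239 ± 0.0698 FPKM with OTX and 0.614 ± 0.212 FPKM with DMSO in -FA and 0.275 ± 0.0117 FPKM with OTX and 0.374 ± 0.245 FPKM with DMSO in +FA. CCL1, listed at 0 in the OTX libraries of IMS-M2 and at 0.0795 FPKM or less in U937, had 4.65 ± 0.08 in -FA and 5.15 ± 0.08 in +FA. IRAK2 and CCL3, under 0.1 FPKM in IMS-M2, had 0.25 ± 0.07 (adjusted p = 0.00471) in -FA and 0.35 ± 0.07 (adjusted p = 1.96e-04) in +FA for IRAK2, and -0.45 ± 0.18 (adjusted p = 0.0484) in -FA for CCL3. The CXCL2 call in +FA, -0.49 ± 0.20 (adjusted p = 0.0484), was lost without any one of U937 +FA OTX replicates 1, 2 and 3, U937 +FA DMSO replicates 1 and 3, IMS-M2 +FA OTX replicates 1 and 2, and IMS-M2 +FA DMSO replicates 1 and 3 (-0.50 to -0.36, adjusted p = 0.0690 to 0.136). The CCL3 call was lost without any one of U937 -FA OTX column 2, U937 -FA DMSO columns 0 and 2, IMS-M2 -FA OTX replicates 1, 2 and 3, and IMS-M2 -FA DMSO replicates 1 and 2 (-0.46 to -0.31, adjusted p = 0.0631 to 0.152) and with a replicate block by column number (-0.45, adjusted p = 0.0935). With 0.1 FPKM added in place of 1, the differences of PTGS2 (-0.06, adjusted p = 0.860 in -FA and -0.47, adjusted p = 0.131 in +FA), CXCL2 in +FA (-0.69, adjusted p = 0.167), and CXCL10 (-0.74, adjusted p = 0.101), CCL3 (-0.59, adjusted p = 0.260) and IRAK2 (0.28, adjusted p = 0.110) in -FA were no longer called.

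IL8 and CCL2 gave no called difference between the lines. For IL8 it was -0.03 ± 0.14 in -FA and -0.03 ± 0.14 in +FA (adjusted p = 0.874 and 0.886), and for CCL2 0.12 ± 0.27 and -0.27 ± 0.27 (adjusted p = 0.762 and 0.426). A p above the threshold does not show that the changes were equal.

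The study's title names folic acid deprivation, and the matching question was whether the OTX change differed between -FA and +FA medium. The difference, the OTX change in -FA minus that in +FA, passed the test for few of the genes. In U937, 0 of 26 genes were above 0, where 0.741% of all tested genes were, and 1 was below, where 1.27% were. At an unadjusted p below 0.05 were 6 of the 26, of which 2 were above 0, and 3791 of all 11194 tested genes. Over all tested genes, 83 were above 0 and 142 below it in U937, and with the libraries rescaled by the median ratio 131 were above and 104 below. In IMS-M2, 3 of 30 genes were above 0, where 3.33% of all tested genes were, and 1 was below, where 3.61% were. Over all tested genes, 374 were above 0 and 405 below it in IMS-M2, and with the libraries rescaled 406 were above and 297 below. With a replicate block by column number in U937, added after seeing the data, limma called 0 of the 26 genes and 0 of all 11194. At an unadjusted p below 0.05 were 6 of the 26 and 3584 of all genes, and the lowest adjusted p was 0.0718. These counts turned on single libraries. In U937 the total was 5 without -FA DMSO column 1, 3 without +FA DMSO replicate 1 and 0 without any one of the other 10 libraries. In IMS-M2 it was 8 without +FA DMSO replicate 1, a fit that called 3429 genes in all. It was 2 without -FA OTX replicate 1, -FA OTX replicate 3 or -FA DMSO replicate 1. Over all genes, calls with single libraries left out ran from 1 to 2704 in U937 and from 82 to 3429 in IMS-M2.

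IL8 was the gene below 0 in both lines. In U937 the OTX change was -2.18 in -FA and -1.38 in +FA, a difference of -0.80 ± 0.17 (adjusted p = 0.0454). In IMS-M2 it was -2.15 in -FA and -1.36 in +FA, a difference of -0.79 ± 0.10 (adjusted p = 0.00301). The DMSO level of IL8 was higher in -FA than in +FA in both lines, and the ratio of means between OTX and DMSO, which does not use the added 1 FPKM, was 0.103 in -FA and 0.0970 in +FA in U937, and 0.0717 and 0.114 in IMS-M2. With 0.1 FPKM added the difference was -0.21, adjusted p = 0.681 in U937 and -0.74, adjusted p = 0.0687 in IMS-M2. The U937 call was also lost without any one of U937 -FA OTX columns 0, 1 and 2, U937 -FA DMSO columns 0 and 2, U937 +FA OTX replicates 1, 2 and 3, and U937 +FA DMSO replicates 2 and 3 (-0.86 to -0.65, adjusted p = 0.0543 to 0.146), and with the replicate block by column number (-0.80, adjusted p = 0.0718).

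ICAM1 in IMS-M2 had changes of 0.24 in -FA and -0.53 in +FA, a difference of 0.77 ± 0.12 (adjusted p = 0.00732). It was the only one of the 4 IMS-M2 calls that held with each library left out and under each other setting that tested it. The filter at 5 FPKM left ICAM1 out, as its highest IMS-M2 group mean was 3.91 FPKM. CCL1 differed by 0.50 ± 0.10 (adjusted p = 0.0198), which repeats its DMSO levels of 24.2 ± 1.62 FPKM in -FA and 34.7 ± 2.2 FPKM in +FA, since all OTX libraries were listed at 0. The call was lost without any one of IMS-M2 -FA OTX replicates 1 and 3, and IMS-M2 -FA DMSO replicate 1 (0.49 to 0.50, adjusted p = 0.0503 to 0.0642). It was also lost with 0.1 FPKM added in place of 1 (0.52, adjusted p = 0.0541). NFKBIZ differed by 0.48 ± 0.13 (adjusted p = 0.0475) with changes of 1.57 in -FA and 1.09 in +FA. Its call was lost without any one of IMS-M2 -FA OTX replicates 1 and 3, IMS-M2 -FA DMSO replicates 1, 2 and 3, IMS-M2 +FA OTX replicates 1, 2 and 3, and IMS-M2 +FA DMSO replicates 2 and 3 (0.39 to 0.52, adjusted p = 0.0662 to 0.130). The NFKBIZ call was also lost without a filter (adjusted p = 0.0808), with a filter at 5 FPKM (adjusted p = 0.0509) and with the libraries rescaled (adjusted p = 0.0511).

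Just outside the threshold lay RELB in IMS-M2, at -0.57 ± 0.16 (adjusted p = 0.0529), and TNF in U937, at 0.77 ± 0.20 (adjusted p = 0.0536). TNF had 9.83 ± 0.773 FPKM with OTX in U937 -FA, 5.53 ± 1.47 FPKM with OTX in U937 +FA, and 1.3 ± 0.199 and 1.33 ± 0.183 FPKM with DMSO in the same media. The plot of folic acid differences shows all tested genes.

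**Figure D4:**
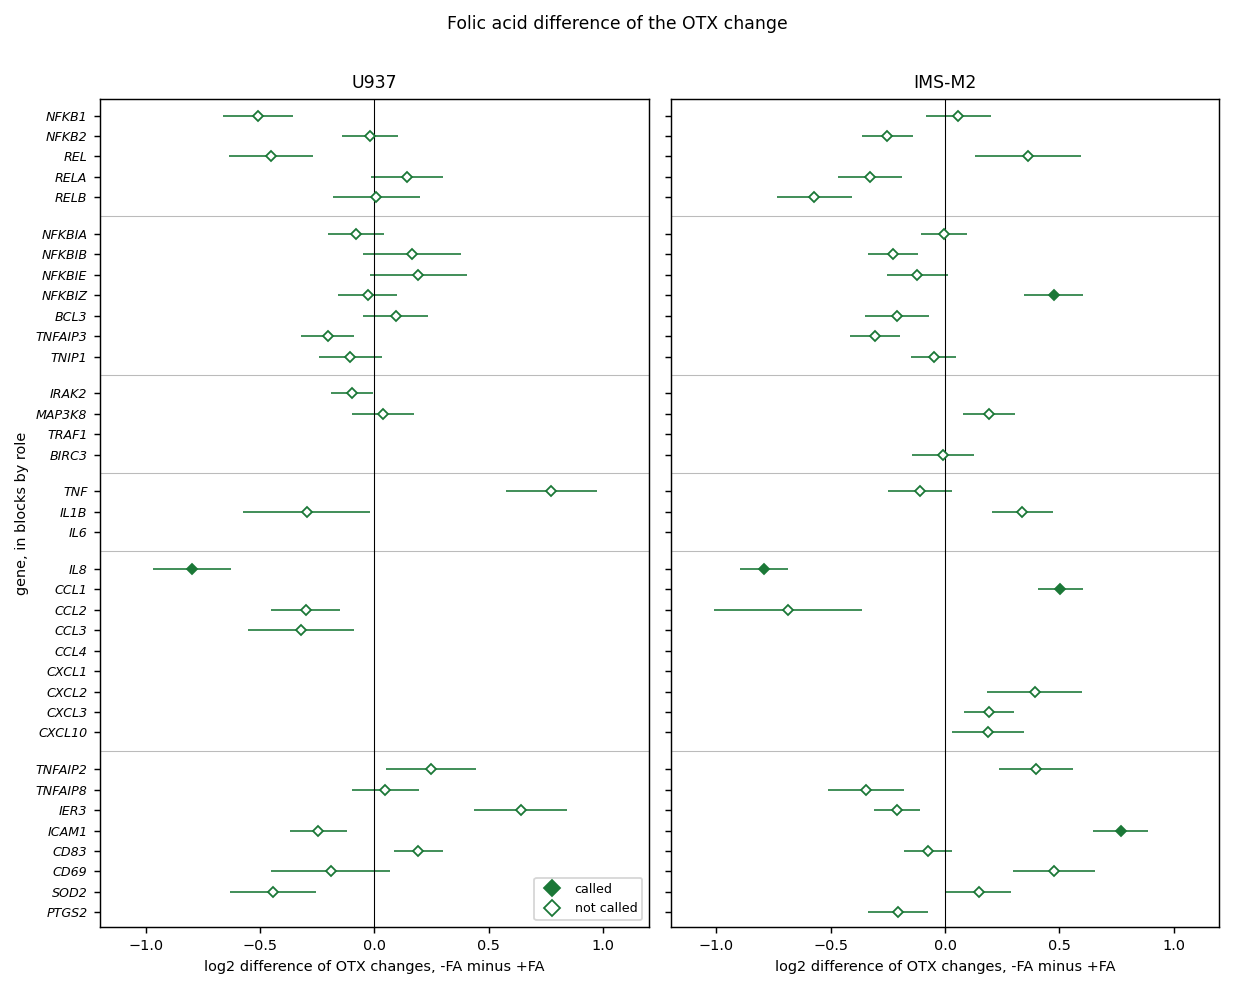
Difference of the OTX log2 changes, -FA minus +FA (x axis), for each tested gene (y axis, in blocks by role) in U937 (left) and IMS-M2 (right), with standard errors (n = 3 libraries a group). Filled diamonds had an adjusted p below 0.05: IL8 in both lines, and NFKBIZ, CCL1 and ICAM1 in IMS-M2.

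The levels without folic acid can be set beside those with it, but the 4 tables may have been normalized separately, so these are levels without a test. Among the genes whose mean reached 1 FPKM in either DMSO group, 5 of 24 were at least 1.5 times as high in -FA as in +FA in U937, where 4.41% of all 10918 such genes were, and 0 were at least 1.5 times as low, where 2.77% were. In IMS-M2, 5 of 30 were at least 1.5 times as high in -FA, where 3.51% of all 11032 such genes were, and 0 were at least 1.5 times as low, where 4.2% were. IL8 was the one gene on both lists. With DMSO it had 6.65 ± 0.438 FPKM in U937 -FA and 2.19 ± 0.555 FPKM in U937 +FA, and 5.05 ± 0.244 FPKM in IMS-M2 -FA and 2.21 ± 0.153 FPKM in IMS-M2 +FA (SD, n = 3). The libraries of the 2 media did not overlap in either line.

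In U937 the others were CCL2, CCL3, ICAM1 and IL1B. CCL2 had 38.8 ± 5.04 FPKM in -FA and 19.4 ± 1.70 FPKM in +FA, and ICAM1 24.6 ± 2.86 and 14.7 ± 1.138 FPKM. CCL3 had 2.26 ± 0.675 FPKM in -FA and 0.801 ± 0.117 FPKM in +FA. These were apart between the media, whereas the IL1B libraries overlapped. In IMS-M2 the others were TNF, RELB, CXCL10 and BIRC3. TNF had 8.61 ± 0.486 FPKM in -FA and 4.62 ± 0.655 FPKM in +FA, and RELB 9.34 ± 1.16 and 5.55 ± 0.838 FPKM. NFKBIA was 1.38 times as high in -FA as in +FA with DMSO in U937 and 1.33 times as high in IMS-M2, and all -FA libraries stood above all +FA libraries in both lines. Myeloid marker sums with DMSO also differed between the media in U937, 1798 to 2190.1 FPKM in -FA and 875 to 1053 FPKM in +FA, and overlapped in IMS-M2, 260.5 to 275 FPKM and 256 to 272 FPKM. Their part in these levels was not tested.

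The starting levels of the 2 lines are again levels from separate tables, without a test. In +FA medium with DMSO, IL1B had 1.63 ± 0.60 FPKM in U937 and 21.5 ± 2.99 FPKM in IMS-M2, BCL3 3.33 ± 0.218 and 17.5 ± 0.753 FPKM, and IER3 0.402 ± 0.0285 and 2.50 ± 0.136 FPKM. ICAM1 and NFKBIB were higher in U937, with 14.7 ± 1.138 FPKM in U937 and 3.49 ± 0.392 FPKM in IMS-M2 for ICAM1, and 40.4 ± 1.48 and 17.2 ± 1.09 FPKM for NFKBIB. In this medium the order of the 36 genes began with SOD2, TNFAIP8 and NFKBIB in U937, and with SOD2, CCL1, TNFAIP8 and TNIP1 in IMS-M2, where the libraries of CCL1 overlapped those of TNFAIP8 and TNIP1. CD69, RELA and CCL2 came next in U937 with 22.3 ± 4.37, 19.5 ± 0.725 and 19.4 ± 1.70 FPKM, which do not differ beyond their spread. In IMS-M2, TNFAIP8, TNIP1, CD69 and NFKB1 lay between 25.5 and 32.4 FPKM.

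Genes outside the 36 give the surroundings. Of 43 receptors, adaptors and kinases upstream of NF-kB, 40 were tested in U937 and 41 in IMS-M2. In U937, 16 rose and 7 fell in -FA, and 16 rose and 5 fell in +FA. In IMS-M2, 15 rose and 10 fell in -FA, and 14 rose and 14 fell in +FA. Over all tested genes the shares that rose and fell were 28% and 31.7% in U937 -FA, 29.1% and 27% in U937 +FA, 27.5% and 30% in IMS-M2 -FA, and 29.8% and 33.4% in IMS-M2 +FA. IRAK1, a kinase of the same receptors as IRAK2, fell in all 4 tables, with log2 changes of -1.51 ± 0.12 in U937 -FA (adjusted p = 1.63e-06), -1.49 ± 0.12 in U937 +FA, -1.41 ± 0.11 in IMS-M2 -FA and -1.47 ± 0.11 in IMS-M2 +FA. RIPK1, a kinase of the TNF receptor complex, and TANK, an adaptor, rose in all 4, by 0.76, 1.07, 0.63 and 0.58 for RIPK1 and by 1.22, 0.99, 0.52 and 0.55 for TANK. MYD88, the adaptor of interleukin 1 and toll-like receptors, fell in IMS-M2 with log2 changes of -1.25 ± 0.13 in -FA and -2.02 ± 0.13 in +FA, and its line difference was 1.13 ± 0.18 in -FA and 2.44 ± 0.18 in +FA (adjusted p = 3.64e-05 and 8.25e-10). Its folic acid difference in IMS-M2 was 0.76 ± 0.19 (adjusted p = 0.0380). TRAF3, which restrains the non-canonical pathway, fell in U937 with log2 changes of -1.004 ± 0.07 in -FA and -0.82 ± 0.07 in +FA and had 0.09 ± 0.07 and 0.13 ± 0.07 in IMS-M2, which did not pass the test. Its line differences were -1.09 ± 0.08 and -0.95 ± 0.08 (adjusted p = 1.58e-09 and 1.03e-08).

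Of 50 other genes known as NF-kB targets or cytokines, 27 were tested in U937, where 10 rose and 11 fell in -FA and 10 rose and 10 fell in +FA. In IMS-M2, 26 were tested, of which 10 rose and 12 fell in -FA and 9 rose and 10 fell in +FA. The shares over all tested genes were 28% risen and 31.7% fallen in U937 -FA, 29.1% and 27% in U937 +FA, 27.5% and 30% in IMS-M2 -FA, and 29.8% and 33.4% in IMS-M2 +FA. BCL2L1, a survival gene, fell in U937 and rose in IMS-M2, with log2 changes of -0.51 in U937 -FA, -0.70 in U937 +FA, 0.87 in IMS-M2 -FA and 1.06 in IMS-M2 +FA, and line differences of -1.37 ± 0.12 and -1.76 ± 0.12 (adjusted p = 1.27e-08 and 2.61e-10). BCL2A1, another survival gene, fell in all 4 tables, with log2 changes of -0.59, -0.61, -1.96 and -1.86. In U937 the chemokine CCL23 fell, with log2 changes of -1.80 ± 0.15 in -FA and -1.38 ± 0.15 in +FA, and the interleukin 1 receptor antagonist IL1RN fell with -1.73 ± 0.14 and -1.23 ± 0.14. In IMS-M2 the cytokines LIF and EBI3 fell, with log2 changes of -1.57 ± 0.11 and -1.55 ± 0.10 in -FA, and TGFB1 and LTA rose, with 1.38 ± 0.14 and 1.05 ± 0.09. The genes named from these lists are among the 3 called genes with the largest change per direction in at least 1 comparison.

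In the hg19 coordinates of the tables, several of these genes share a chromosome. The chemokines IL8 (chr4:74606222-74609433), CXCL1 (chr4:74735108-74737019), CXCL3 (chr4:74902311-74904490), CXCL2 (chr4:74962753-74964997) and CXCL10 (chr4:76932332-77033955) share chromosome 4, on which IL8 fell while CXCL2, CXCL3 and CXCL10 rose in IMS-M2. The chemokines CCL2 (chr17:32582295-32584220), CCL1 (chr17:32687398-32690252), CCL3 (chr17:34415602-34417506) and CCL4 (chr17:34431219-34433014) share chromosome 17, and of these CCL1 and CCL2 fell in IMS-M2. IER3 (chr6:30710975-30712327) and TNF (chr6:31543343-31546112) lie on chromosome 6, and RELB (chr19:45504706-45541456) and BCL3 (chr19:45251977-45263301) on chromosome 19. The tables give each locus as 1 interval and do not mark exons.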

How the data were processed

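RNA was polyA-selected and sequenced with the TruSeq stranded mRNA kit, per the labels' protocols. Cuffdiff 2.2.1, TopHat2 2.1.1 and bcl2fastq 2.17.1.14 were used with build hg19, per the submitters' processing notes, which give no roles or order. The authors deposited 4 gene tables of normalized values, 1 for each line and medium; the values were read as FPKM, from their pattern, since per the file headers no unit is named. Fragment totals are unknown, and whether the tables share a normalization is not stated, so levels were not tested across tables. Every column of values was used (0 left out). The U937 -FA columns start at number 0 where the labels start at 1, so they were assigned to groups only. Same-numbered OTX and DMSO columns of this table deviated together, with correlations of 0.19, 0.19 and 0.33; a replicate block by these column numbers was added after seeing the data.

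The 36 genes and all lists were chosen with earlier results of these data known. Log2(FPKM + 1) was fitted with limma 3.58.1 (R 4.3.3), with a mean-variance trend, over the 12 libraries of a line (OTX changes and folic acid differences) or all 24 (line differences), for genes with a group mean of at least 1 FPKM. Adjusted p-values are Benjamini-Hochberg over all genes tested, with a threshold of 0.05. The methods were tested on simulated data. Values in every library were printed for genes called with a log2 change of at least 1 and a group mean of at least 5 FPKM. They were also printed for some other tables of such a gene and for some called genes whose 2 groups overlapped. Where only a mean and SD are printed, the libraries of 2 groups may overlap. Folic acid and line differences of at least 0.5 were named, and up to 3 genes per direction of other lists. Alternatives were an added 0.1 FPKM, no filter, a filter at 5 FPKM, libraries rescaled by the median ratio, each table fitted alone, a replicate block, and each library left out.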

Additional observations from a re-analysis of the deposited data

Results flagged for a closer look

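The results listed here are differences between the OTX changes of 2 lines or 2 media that passed their own test (limma, Benjamini-Hochberg adjustment over all genes) with a size of at least 0.5 on the log2 scale. Between the media, as -FA minus +FA, IL8 stood at -0.80 in U937 and -0.79 in IMS-M2, and ICAM1 and CCL1 in IMS-M2 at 0.77 and 0.50. With 0.1 FPKM added in place of 1, IL8 in both lines and CCL1 were no longer called.

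Between the lines, as U937 minus IMS-M2, the following subunits and inhibitors were below 0. In -FA the differences were -1.26 for RELB, -1.16 for TNFAIP3, -1.08 for NFKBIA, -1.07 for NFKB2 and -0.51 for BCL3. In +FA they were -1.84 for RELB, -1.30 for NFKB2, -1.26 for TNFAIP3, -1.001 for NFKBIA, -0.82 for BCL3 and -0.50 for NFKBIE. Among the target genes in -FA, SOD2 stood at -0.996, IER3 at -0.78 and ICAM1 at -0.61, and in +FA IER3 stood at -1.63. Above 0 in -FA were TNFAIP2 at 2.25, IL1B at 2.07, TNF at 0.89 and CD69 at 0.60, and in +FA IL1B at 2.70, TNFAIP2 at 2.40 and CD69 at 1.26.

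The remaining genes had group means under 1 FPKM throughout U937. In -FA they were -1.18 for CXCL10, -1.17 for CXCL2, -1.08 for CXCL3, -0.71 for BIRC3, -0.68 for PTGS2 and 4.65 for CCL1. In +FA they were -1.19 for CXCL10, -0.96 for PTGS2, -0.83 for CXCL3, -0.78 for BIRC3 and 5.15 for CCL1.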

How the results depend on the processing

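A called gene was counted as held if it kept its direction and stayed called with each library left out and under every setting that tested it. The filter at 5 FPKM did not test genes below that mean in every group of the fit, so the other settings decided for those. Of the called genes it tested 17 in U937 -FA, 15 in U937 +FA, 23 in IMS-M2 -FA and 23 in IMS-M2 +FA. All of these stayed called with it. The genes held numbered 15 of 21 in U937 -FA and 15 of 18 in U937 +FA. In IMS-M2 they numbered 24 of 27 in -FA and 23 of 26 in +FA. For the folic acid difference they were 0 of 1 in U937 and 1 of 4 (ICAM1) in IMS-M2, and for the line difference 14 of 21 in -FA and 17 of 20 in +FA. With each library left out, the number of called genes ranged from 16 to 20 in U937 -FA, 15 to 19 in U937 +FA, 24 to 26 in IMS-M2 -FA and 24 to 25 in IMS-M2 +FA, from 0 to 5 in U937 and from 2 to 8 in IMS-M2 for the folic acid difference, and from 19 to 21 and from 18 to 22 for the line difference in -FA and +FA. The folic acid count in U937 was 0 with an added 0.1 FPKM, 0 without a filter and 0 with a filter at 5 FPKM, against 1 as reported; the cause was not tested. Over all genes the folic acid calls numbered 225 in U937, against 31 with 0.1 FPKM, 128 without a filter and from 1 to 2704 with single libraries left out. In IMS-M2 they numbered 779, against 445 without a filter and from 82 to 3429 with single libraries left out.

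With 0.1 FPKM added in place of 1, the -FA line difference of NFKBIZ changed sign to 0.0034, and the line differences of PTGS2 in both media and of CXCL10, CD69, CCL3, IRAK2 and IER3 in -FA and CXCL2 in +FA were no longer called; the cause was not tested. Fitted alone, the table's 6 libraries no longer gave the calls of RELA, NFKBIB, TNIP1 and CCL3 in U937 -FA and of CXCL2 and CD83 in IMS-M2 +FA. Rescaling moved the median of all genes by at most 0.0467 log2. Among the OTX changes it ended the calls of RELA in IMS-M2 -FA (adjusted p = 0.0525) and NFKBIB in U937 -FA (adjusted p = 0.0561). Rescaling also ended 1 called line difference in each medium. Without a filter, the OTX calls of CXCL2 in IMS-M2 +FA, TNFAIP8 in IMS-M2 -FA, and RELA and NFKBIB in U937 -FA were lost (adjusted p = 0.0609, 0.0576, 0.0652 and 0.0676).

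In the 3 tables with label numbers, same-numbered OTX and DMSO libraries deviated together to unlike degrees. The correlation of same-numbered deviations was 0.05, 0.28 and 0.07 in IMS-M2 +FA. It was 0.08, 0.21 and 0.19 in IMS-M2 -FA, and -0.34, 0.13 and -0.24 in U937 +FA. The best correlation with another number was 0.07, -0.08 and 0.03 in IMS-M2 +FA. In IMS-M2 -FA that value was 0.02, -0.04 and -0.03, and in U937 +FA 0.22, 0.11 and 0.50. With a replicate block the called genes were 18 in U937 +FA, 27 in IMS-M2 -FA, 26 in IMS-M2 +FA, 20 for the +FA line difference, without NFKBIE at -0.50 (adjusted p = 0.0522), and 8 for the difference between media in IMS-M2 (4 above and 4 below 0; over all genes 1920). With the replicate block by column number, added after seeing the data, they were 20 in U937 -FA, without CCL3, 19 for the -FA line difference, without CCL3 and CD69, and 0 for the difference between media in U937, over all genes 0. Every OTX library correlated best with the DMSO library of its own number in U937 -FA and IMS-M2 -FA, a hint from the data and not the design. Without fragment totals, changes of genes near 1 FPKM carry an unknown counting error.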
